A study of Mus musculus with 15 samples.

Results

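Kcnd2 encodes Kv4.2, the pore-forming subunit of a rapidly inactivating (A-type) potassium channel. The locus was followed in sperm DNA as every listed CpG inside its RefSeq span on mm10 chromosome 6 (21215346 to 21729805) or within 2 kb of either end. There were 20 such CpGs out of 204492 listed in the series, and 4 of them lay in the window from 21393001 to 21394000. The gene and the window were chosen by the spread of percent methylation between libraries of the same diet, so that spread is described here and not tested. Percent methylation is the count of methylated reads over the count of all reads at a CpG.

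The material was sperm of male C57BL/6 mice of generation G1, with 7 libraries labelled Control and 8 labelled PR, for protein restricted. The labels give no age, litter or batch, and do not say whether the sampled mouse or a parent ate the diet. Titles carry numbers that partly run in sequence, such as 22 to 24 in Control and 42 to 44 in PR, and PR 2 and 3, which recur below, are numbers 31 and 30. What the numbers stand for is not stated, and whether such libraries are independent of each other is not known. The assay was reduced representation bisulfite sequencing (RRBS). DNA is cut at CCGG by MspI, short fragments are kept, and a cytosine that survives bisulfite is read as methylated. Whether each library is 1 mouse or a pool is also not stated, and the p-values below therefore refer to variation from library to library, which could be technical.

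Kv4 channels open near the resting potential and close within milliseconds, which lets them shape dendritic signals in neurons and early repolarization in the mouse heart. They work as complexes in which the pore subunits (Kcnd1, Kcnd2, Kcnd3) bind KChIP proteins (Kcnip1 to Kcnip4), which sense calcium, and the membrane proteins Dpp6 and Dpp10, which speed gating. Sperm DNA carries methylation at most CpGs outside CpG islands, and a promoter rich in CG is usually free of it.

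The promoter is shown because it marks what the listed positions leave out. Its 250 bases upstream of the RefSeq start (GRCm38.p6, the mm10 assembly, chr6:21215096-21215345, plus strand) are given 5′ to 3′ with the MspI motif CCGG in capitals.

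Kcnd2 promoter: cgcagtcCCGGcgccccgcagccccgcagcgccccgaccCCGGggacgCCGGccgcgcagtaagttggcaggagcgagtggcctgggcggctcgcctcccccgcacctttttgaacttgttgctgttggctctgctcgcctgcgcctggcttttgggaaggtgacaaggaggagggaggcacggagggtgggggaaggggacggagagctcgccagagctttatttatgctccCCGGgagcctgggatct

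These bases hold 22 CG dinucleotides, more than 85.2% of the promoters in the RefSeq table, and 4 copies of CCGG, which reads the same on both strands and occurs at least once in 47.1% of 32851 promoters. None of them is a listed position. The first listed CpG of Kcnd2 lies 11.7 kb inside the gene. No library has fewer than 11 methylated reads at any listed position, so a promoter with little methylation would not be listed at ordinary depth, and its level was not measured here.

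The libraries were sequenced to between 6650912 and 11841657 counts summed over the listed CpGs. The 3 deepest, Control 4 and PR 2 and 3, also resembled each other in how reads were spread over CpGs. The Pearson correlation of their coverage profiles, each CpG being centred on the log2 scale, was 0.418 to 0.628 between these 3, -0.469 to 0.452 among the other 12, and -0.512 to 0.122 between the 3 and the rest, over CpGs and without a test. No 2 libraries held identical counts. The listed CpGs did not allow a check of the tissue label, since 7 CpGs upstream of Meg3 and Rasgrf1, genes with nearby regions methylated on the paternal copy, were not placed inside those regions. Their library means of 92.6% to 97.0% were at the level of most listed CpGs.

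Most of the listed CpGs of Kcnd2 were highly methylated in both diets. All listed CpGs have at least 11 methylated reads in every library, which favours high levels. The CpGs of the gene that are not listed were not measured. Of the 20 CpGs, 15 had a mean over libraries of at least 90%, or 75.0%, against 89.7% of all listed CpGs. None lay in the flanks. Over the 16 CpGs outside the window the gene averaged 91.0% ± 1.16 (SD, n = 7) in sperm of Control and 90.9% ± 0.745 (SD, n = 8) in PR sperm. Control libraries ran from 89.1% through a median of 90.9% to 92.7%, and PR libraries from 89.5% through 91.0% to 91.9%, so the diets overlapped almost completely. The difference, PR minus Control, was -0.145 points, with a 95% interval of -1.21 to 0.940 (two-sided exact permutation p = 0.778).

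By its mean over all 15 libraries the highest was the CpG at 21490709, at 99.5% ± 0.924 (SD, n = 7) and 99.7% ± 0.643 (SD, n = 8). Lower levels stood at 2 places apart from the window. One was the first listed CpG (21227066), which has no other listed CpG near it. It was at 41.6% ± 6.38 (SD, n = 7) in Control, from 31.1% through a median of 44.2% to 50%, and at 39.7% ± 7.19 (SD, n = 8) in PR sperm, from 31.7% through 37.9% to 50.6%. The diets differed there by -1.89 points, less than the SD of either (exact permutation p = 0.593, 95% interval -9.66 to 6.04), at a coverage of 43 to 136 reads.

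The other place was a group of 3 CpGs near 348 kb from the gene start, where the lncRNA gene Gm52855 (21540052 to 21600233) shares the span of Kcnd2. At 21562859 the level was 81.8% ± 5.62 (SD, n = 7) in Control sperm and 77.6% ± 6.34 (SD, n = 8) in PR sperm. At 21562924 it was 75.7% ± 8.08 (SD, n = 7) and 73.0% ± 5.71 (SD, n = 8), and the CpG between them was at 86.4% ± 5.23 (SD, n = 7) and 88.3% ± 4.04 (SD, n = 8). All 3 were lower than the 2 CpGs about 2 kb before them in the same lncRNA span, whose means were 98.4% and 98.6%. Exon and intron positions of Kcnd2 were not analysed here.

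**Figure D1:**
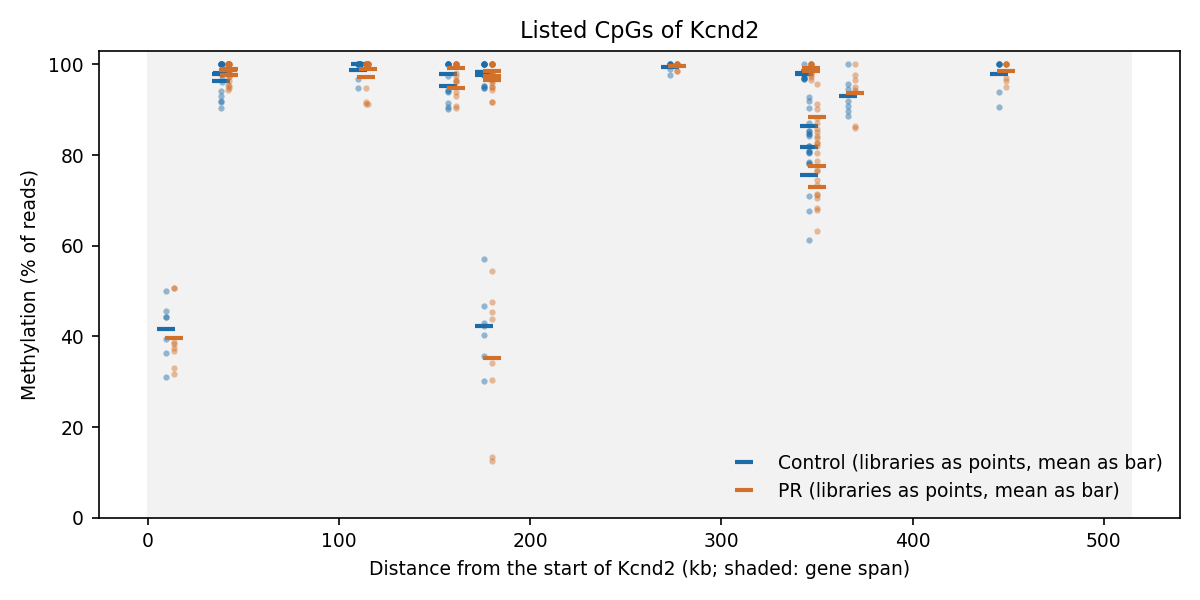
Methylation (percent of reads) of the 20 listed CpGs of Kcnd2 against distance from the gene start in kb; points are libraries, bars are diet means, Control in blue and PR in orange, drawn side by side. Most CpGs sit above 90%, while the first listed CpG and 1 CpG of the window average 40.6% and 38.5%.

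The window itself held 4 CpGs within 53 bases, 178 kb from the gene start, and these did not behave alike. For brevity they are called A (21393631), B (21393635), C (21393644) and D (21393684). CpG A was at 42.2% ± 8.53 (SD, n = 7) in Control sperm and 35.2% ± 15.6 (SD, n = 8) in PR sperm. CpGs B, C and D were nearly fully methylated, at 98.3% ± 1.79, 98.3% ± 1.92 and 97.6% ± 2.07 (SD, n = 7) in Control sperm and at 98.5% ± 2.89, 96.5% ± 2.80 and 97.5% ± 1.85 (SD, n = 8) in PR sperm. A and B lie 4 bases apart.

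**Figure D2:**
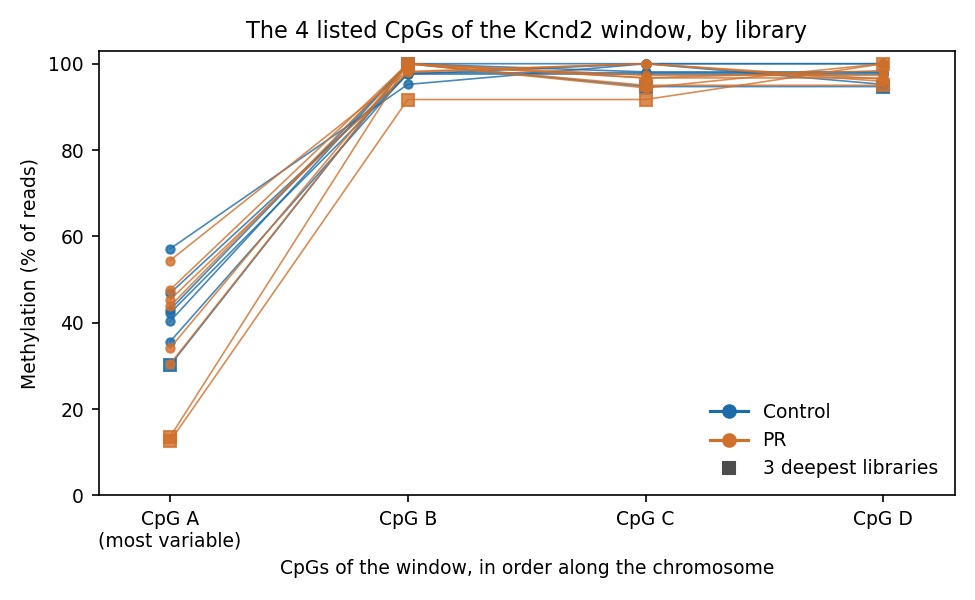
Methylation (percent of reads) at CpGs A to D of the window, 1 line per library, Control in blue and PR in orange, with squares for the 3 deepest libraries. Every library lies between 12.5% and 57.1% at CpG A and above 90% at B, C and D, and the squares are the lowest 3 points at A.

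CpG A carried the spread that singled the window out. In Control it ran from 30.1% in Control 4 through a median of 42.2% to 57.1% in Control 3. In PR sperm it ran from 12.5% in PR 3 and 13.5% in PR 2 through a median of 38.9% to 54.4% in PR 5. PR 2 and 3 stood below every other library, the next being Control 4 at 30.1% and PR 1 at 30.4%, and the diets otherwise overlapped. The SD within a diet was 12.8 points at A, against a median of 2.43 over all listed CpGs, and 2.44, 2.44 and 1.95 at B, C and D.

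Partly methylated CpGs vary more than full ones, so A was also set beside CpGs of like level. Among 1405 listed CpGs with a mean of 30% to 50% and a mean coverage under 200 reads, the median SD within a diet was 7.11 points, and 99.0% had a lower SD than A. The dispersion of A, which would be about 1 under counting error alone, was 6.99, against a median of 1.18 in these CpGs. At the first listed CpG of Kcnd2 the SD was 6.83 points and the dispersion 1.58, and 43.3% of CpGs of like level had a lower SD and 73.9% a lower dispersion. A was therefore wider than most CpGs of its level by both measures, at 99.0% and 99.9%. These are descriptions, since A was singled out by its spread.

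How the window ranked depended on how its 4 CpGs were combined. With methylated and total counts summed over the window, its level was 74.7% ± 7.94 (SD, n = 7) in Control sperm and 66.2% ± 18.8 (SD, n = 8) in PR sperm, and its SD within a diet of 14.8 points ranked 1 of 28743 windows of 1 kb with at least 3 listed CpGs, the next being 12.3. With the mean of the 4 percentages, which gives each CpG the same weight, the levels were 84.1% ± 2.39 (SD, n = 7) and 81.9% ± 4.76 (SD, n = 8), and the SD of 3.85 points ranked 1986. By dispersion on summed counts the window ranked 18. Dispersion takes each count as a separate read, while CpGs this close can share reads, so it allows for counting error only in part. The median SD over all windows was 1.34 points with summed counts and 1.35 with means. Over B, C and D alone the SD was 1.31 points, below that median. The description of the locus as variable therefore rests on A, and in the sums also on how many reads A has beside B to D.

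By the mean of percentages the window inside Gm52855 (21562001 to 21563000, the 3 CpGs above) varied more, with an SD of 5.07 points, at 81.3% ± 5.30 (SD, n = 7) in Control sperm and 79.6% ± 4.86 (SD, n = 8) in PR sperm. Its dispersion on summed counts was 1.86, against 18.4 in the window holding A. These were the only windows of Kcnd2 with at least 3 listed CpGs.

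Read counts at A did not match those of the CpGs beside it. B, C and D had the same total as each other in 15 of 15 libraries, from 12 through a median of 41 to 61 reads. A, which lies 4 bases from B, had 41 through 79 to 133 reads. A had more reads than B in each library, by a ratio of 1.49 in Control 1 to 8.0 in PR 3, with a median of 2.16. The 4 highest ratios were those of PR 3, PR 2 (6.65), Control 4 (3.84) and PR 1 (2.63). These 4 libraries also had the 4 lowest percentages at A. The ratio and the percentage both use the total at A, so they are not independent.

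Set against the total at B, methylated and unmethylated reads at A moved differently. Methylated reads at A numbered 12 to 49, and stayed close to the total at B, between 0.642 and 1.16 of it with a median of 0.857. Unmethylated reads at A numbered 27 to 115, between 0.643 and 7.0 of the total at B. Over the median coverage of each library the order was the other way. There the highest value was 4.59 times the lowest for methylated reads and 3.28 times for unmethylated reads. At B, C and D each library had at most 2 unmethylated reads per CpG. In PR 3, for example, A had 12 methylated and 84 unmethylated reads where B had 12 reads in all. In Control 3, at the other end, A had 36 methylated and 27 unmethylated reads where B had 42.

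**Figure D3:**
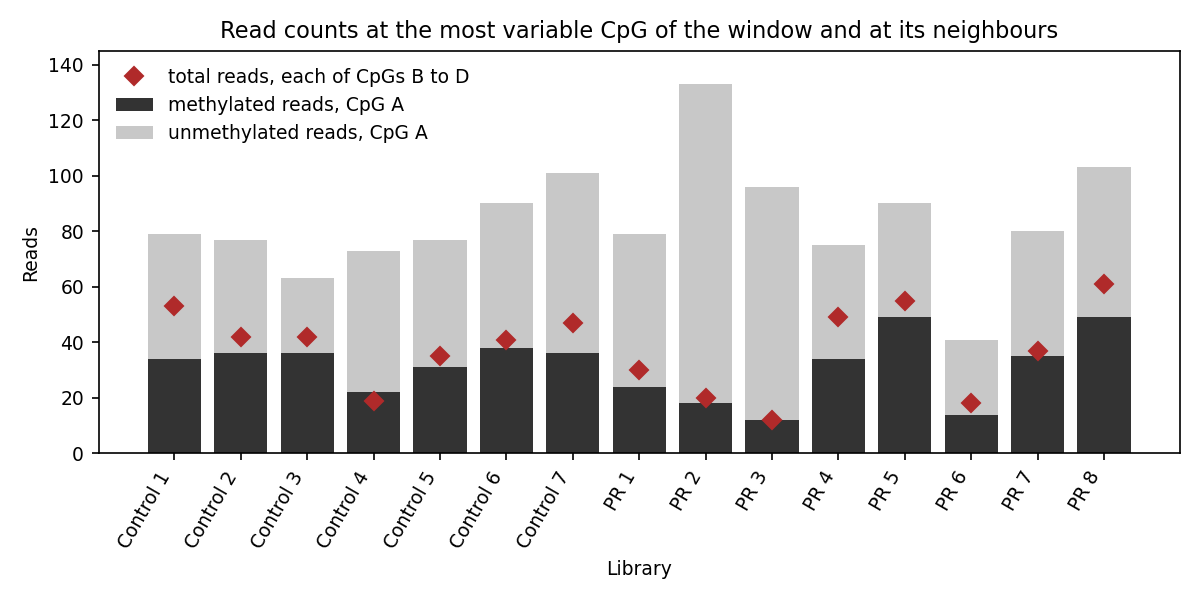
Read counts by library: bars give methylated (dark) and unmethylated (light) reads at CpG A, and diamonds the total at each of CpGs B to D. Dark bars reach 0.642 to 1.16 of the height of the diamonds, and the light bars reach 115 reads in PR 2 and 84 in PR 3.

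Set against the depth of each library, PR 2 and 3 had both fewer reads at B to D and more unmethylated reads at A. Divided by the library's median coverage, the total at B to D was 0.333 in PR 3, 0.452 in Control 4, 0.513 in PR 2 and 0.692 in PR 6, and higher in every other library. PR 1, with the fourth lowest percentage at A, had 1.03. Unmethylated reads at A on the same scale were 2.95 in PR 2 and 2.33 in PR 3, the highest of the 15 libraries, whose median was 1.45, but 1.21 in Control 4. Methylated reads at A were 0.462 and 0.333, against a median of 1.10. The total at A ranged from 1.58 to 3.41, with 2.67 in PR 3 and 3.41 in PR 2. The relative coverage of B to D did not differ between the diets beyond its spread, at 1.27 ± 0.417 (SD, n = 7) in Control sperm and 1.11 ± 0.569 (SD, n = 8) in PR sperm (exact permutation p = 0.544). The relative coverage of B to D was thus lowest in the 3 libraries with the lowest percentages at A. The relative total at A showed no such order, at 2.67 both in PR 3 (12.5% at A) and in PR 7 (43.8%). How much of the spread went with read depth was not tested, and relations across libraries are given below.

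**Figure D4:**
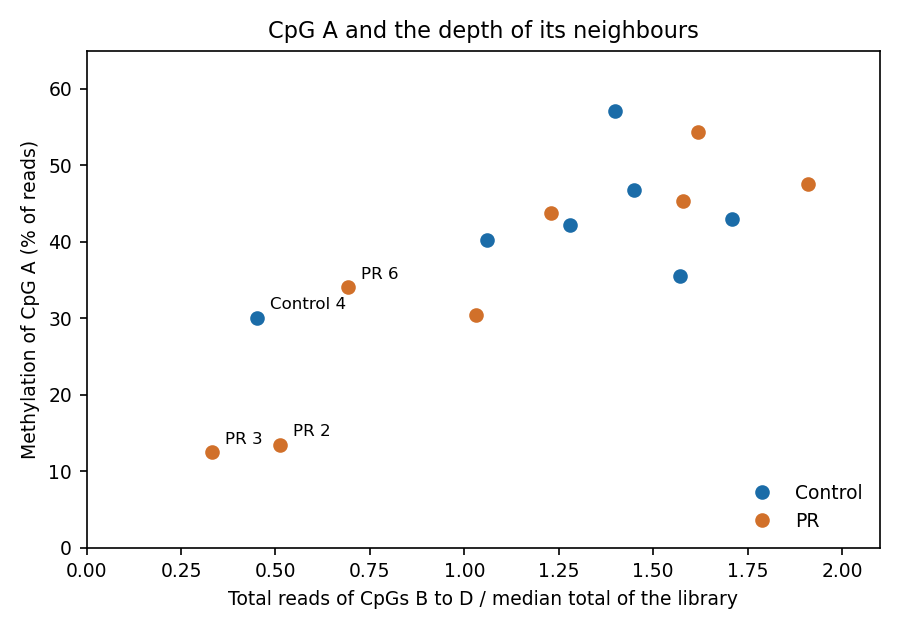
Methylation of CpG A (percent of reads) against the total at CpGs B to D over the library's median coverage, 1 point per library, Control in blue and PR in orange. The 3 deepest libraries and PR 6 lie left of 0.7, with PR 2 and 3 at 13.5% and 12.5%.

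PR 2 and 3 formed a cluster of their own, so relations across libraries were computed over the other 13, for the mean percentage of the window and 5 measures. The closest was with the relative coverage of B to D, a measure that was not among those planned and was added later. There r of Pearson was 0.705 (permutation p = 0.0105) and rho of Spearman 0.654 (permutation p = 0.0181). Adjusted over the 5 relations these p-values were 0.0525 and 0.0904, and without Control 4 and PR 6, which lay farthest from the median coverage, r was 0.420, so the relation rested in part on them. Within Control r was 0.625 (exact permutation p = 0.196, n = 7) and within the remaining PR libraries 0.801 (exact permutation p = 0.0639, n = 6). Both measures come partly from the same reads.

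The other relations were no closer. For the relative depth of the whole window r was 0.628 (permutation p = 0.0270, adjusted 0.0593) and rho 0.571 (permutation p = 0.0444, adjusted 0.101), and r was 0.393 without Control 4 and PR 8. For the mean of the 204472 CpGs outside Kcnd2 r was 0.580 (permutation p = 0.0356, adjusted 0.0593) and rho 0.538 (permutation p = 0.0604, adjusted 0.101), and r was 0.425 without Control 3 and PR 6. For the 102 CpGs of the ribosomal RNA locus Rn18s-rs5 r was 0.473 (permutation p = 0.0989) and rho 0.451 (permutation p = 0.123). For the rest of Kcnd2 r was -0.0519 (permutation p = 0.871) and rho 0.0989 (permutation p = 0.752). PR 2 and 3, the lowest in the window, had 91.2% and 91.3% in the rest of the gene, and PR 1 and 6 had 90.6% and 90.3%.

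Other places in the listed positions showed the same step in level and coverage. Of 27671 pairs of neighbouring CpGs at most 10 bp apart, 383 (1.38%) differed at least 1.5 times in median coverage, and A and B, at 1.93 times, were more uneven than 99.4% of pairs. In 69 pairs one CpG had a mean of 50% or less and the other of 90% or more. Of these 69, 40 were uneven, and in 40 of these 40 the deeper CpG was the low one, A and B being among them. The rest of the 69 were even pairs, and in only 1 of them was the deeper CpG the low one. Where median coverage was equal, the first CpG was counted as the deeper. In uneven pairs the deeper CpG was at 50% or less in 17.5%, against 1.25% in even pairs. The listing itself favours both results for uneven pairs through its floor of 11 methylated reads. A CpG at 50% or less needs more reads in total to reach that floor than a CpG at 90% or more. Whether low level and greater depth go together beyond this floor was not tested. The deeper CpG of an uneven pair was still highly methylated in most cases, with a median of 97.0%.

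The spread of A was large among such pairs too. In the other 39 pairs the low CpG had a median SD within a diet of 7.57 points, and 35 of the 39 had a lower SD than A, the highest being 15.2. Over these 39 pairs PR 2 and 3 had the highest median coverage ratios of the 15 libraries, at 2.52 and 2.39, Control 4 had 2.13, and the other 12 had 2.04 to 2.32. The median level of the low CpG was 39% in PR 2, 41.3% in PR 3 and 45.7% in Control 4, within the 39% to 46.0% of the other 12.

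Between the diets, none of the Kcnd2 CpGs passed. Each listed CpG of the genome was tested with a quasi-binomial model, and 0 of 204492 (0%) were called at an adjusted p under 0.05, so 0 of 20 in Kcnd2 is the same share as the background. At an unadjusted p under 0.05 there was 1 of 20 CpGs in Kcnd2, against 3.79% of all CpGs, and none in 8 of the 15 fits that left out a single library. limma called 0 Kcnd2 CpGs on percentages and 0 on logit values, each with 1 at an unadjusted p under 0.05. Over all 204492 CpGs limma called 0 on either scale, with 9320 and 9321 at an unadjusted p under 0.05. Of the 20 CpGs 10 had a higher and 10 a lower mean in PR sperm, with a median difference of -0.00829 points, against 0 over all CpGs.

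The CpG with the smallest p was 21560778, inside Gm52855, at 97.8% ± 0.897 (SD, n = 7) in Control sperm and 99.3% ± 0.841 (SD, n = 8) in PR sperm, with an unadjusted p of 0.0459 in the quasi-binomial test. Next among the higher ones were 21255511, with a difference of 2.45 points (unadjusted p = 0.107, quasi-binomial), and 21374116, with 1.45 points (unadjusted p = 0.257, quasi-binomial). The smallest p among CpGs lower in PR sperm was at 21327938, at 100% in every Control library and 98.9% ± 3.07 (SD, n = 8) in PR sperm (unadjusted p = 0.125, quasi-binomial), where PR 7 alone was below 100%. Next came 21562859, with -4.18 points (unadjusted p = 0.352, quasi-binomial), and 21327746, with -1.56 points (unadjusted p = 0.439, quasi-binomial), leaving out the window.

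In the window the difference was no larger than the spread between libraries. By the mean of its CpGs it was -2.22 points (two-sided and exact permutation p = 0.295, with a 95% interval from -6.58 to 2.06 points), while 4 of 8 PR libraries lay below the Control mean. At CpG A it was -6.96 points (exact permutation p = 0.316, 95% interval -21.5 to 7.51), ranging from -9.71 without PR 5 to -3.72 without PR 3 when single libraries were left out. Over B, C and D it was -0.633 points (exact permutation p = 0.387, 95% interval -2.11 to 0.795). The window minus the rest of the gene differed by -2.07 points between the diets (exact permutation p = 0.356). The lowest adjusted p over the 7 exact tests was 0.677. Both windows of Kcnd2 failed the quasi-binomial test on summed counts, in which 0 of 28743 windows (0%) were called. None of the 2 had an unadjusted p under 0.05, against 3.33% of windows. On percentages limma called 0 of the 2, with 0 at an unadjusted p under 0.05. Over all 28743 windows it called 0, with 1366 at an unadjusted p under 0.05.

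The direction in the window rested on PR 2 and 3 together. Without both, the difference was 0.112 points (exact permutation p = 0.931), and at CpG A 0.434 points (exact permutation p = 0.921). Without the 3 deepest libraries it was -0.591 points (exact permutation p = 0.615), and -1.57 points at A (exact permutation p = 0.755). The SD within a diet at A fell from 12.8 points to 8.69 without PR 2 and 3 and to 8.14 without the 3 deepest libraries. Both reduced values were above 7.11 points, the median of CpGs of like level. That median was taken over all 15 libraries and not recomputed for the reduced sets. These sets of libraries were chosen after the data were seen.

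Genes whose windows followed the Kcnd2 window over the 15 libraries were sought among 1045 windows with an SD within a diet of at least 5 points. The closest was in Fam184a (chr10:53738001-53739000), with a Pearson r of 0.677. Next were the window at Mfap1a and Wdr76 (chr2:121507001-121508000) with 0.644, Pde7b, a cyclic AMP phosphodiesterase (chr10:20700001-20701000), with 0.611, Rxrg, a retinoid X receptor (chr1:167606001-167607000), with 0.608, and Gm11685 (chr11:109622001-109623000) with 0.604. The median r over all 1045 was 0.0196. These are the highest of many values and are given with no p. Without PR 2 and 3, r was 0.741 for Fam184a, 0.607 for Gm11685, 0.359 for Pde7b, 0.176 for Rxrg and 0.121 for Mfap1a and Wdr76. The Mfap1a and Wdr76 window was at 73.1% and 73.5% in PR 2 and 3, against 78.0% to 90.9% in the other 13 libraries.

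The other genes of the channel had 162 listed CpGs, and 0 were called between the diets. At an unadjusted p under 0.05 there were 5, of which 1 was higher and 4 lower in PR sperm, or 3.09%, against 3.79% of all CpGs. The median difference was -0.0978 points, against 0 over all CpGs.

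Among the pore subunits, Kcnd3 had 33 CpGs at 98.4% ± 0.253 (SD, n = 7) in Control sperm and 98.6% ± 0.311 (SD, n = 8) in PR sperm, and 100% of them had a mean of at least 90%. Kcnd1 on the X chromosome had none listed. Over its 20 CpGs Kcnd2 averaged 89.6% ± 0.897 (SD, n = 7) and 89.1% ± 1.06 (SD, n = 8).

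Of the KChIP genes, Kcnip1 had 40 CpGs at 94.9% ± 1.02 (SD, n = 7) and 94.2% ± 0.497 (SD, n = 8). Kcnip4 had 30 CpGs at 98.4% ± 0.398 (SD, n = 7) and 98.4% ± 0.520 (SD, n = 8). Kcnip3, which also encodes the transcriptional repressor DREAM, had 9 CpGs at 96.2% ± 1.46 (SD, n = 7) and 95.9% ± 0.928 (SD, n = 8), and Kcnip2 had 2 at 95.2% ± 2.03 (SD, n = 7) and 95.9% ± 1.61 (SD, n = 8). All of these levels were close between the diets.

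Of the accessory membrane proteins, Dpp6 had 18 CpGs at 98.1% ± 0.876 (SD, n = 7) and 98.0% ± 0.813 (SD, n = 8), and Dpp10 had 30 at 91.9% ± 1.06 (SD, n = 7) and 91.7% ± 0.537 (SD, n = 8). Dpp10 held the 2 CpGs of the list outside Kcnd2 with a mean of 50% or less, named here after their values were seen. They lie on chromosome 1 at 124447183 and 124447261, at 20.6% ± 3.16 and 17.0% ± 4.54 (SD, n = 7) in Control sperm and 24.2% ± 3.52 and 21.0% ± 3.95 (SD, n = 8) in PR sperm (unadjusted p = 0.0738 and 0.0623, quasi-binomial). None of the 162 CpGs had an SD within a diet above that of A, the highest being 9.49 points in Kcnip1.

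Of the genes next to Kcnd2, Tspan12, which encodes a tetraspanin of Norrin signalling, had 13 CpGs at 97.4% ± 0.838 (SD, n = 7) in Control sperm and 97.8% ± 0.630 (SD, n = 8) in PR sperm, with an SD within a diet of at most 5.21 points. Gm26373, the snRNA gene on the other side, had none listed.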

How the data were processed

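The deposited files give, per CpG position, counts of methylated reads and of all reads, raw and not normalized, per the file headers. The submitters' processing notes name Bismark 0.7.12, Bowtie2 2.1.0 and mm10, with no roles, and the filter behind the listing is not stated in what was used here. No 2 listed positions are 1 base apart, and 685 of 685 inside RefSeq promoters fall on the C of a plus-strand CG, so each CpG has 1 row.

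Percentages were computed per library with a coverage minimum of 10 reads, which removed 0 CpGs. Each CpG was tested on diet with a quasi-binomial logistic model (F test, 13 residual degrees of freedom, dispersion at least 1). Counts summed over windows of 1000 bp with at least 3 CpGs were tested likewise. Benjamini-Hochberg adjustment was over all CpGs or windows. The model was first tested on simulated counts with counting error alone, which does not cover a CpG as dispersed as A. Region means were compared by exact permutation over all 6435 regroupings (smallest p 0.000155), with 95% intervals by inverting it. limma 3.58.1 (R 4.3.3) was an alternative, with a logit pseudocount of 1. Python 3.11.15, numpy 2.4.6 and scipy 1.17.1 were used. Reads carry no molecular identifiers.

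The gene, the window and the gene list were chosen with earlier results of these data known. Named were all window CpGs, the 3 most variable and the lowest and highest other CpGs, the 3 of smallest p in each direction, the Kv4 genes, the flanking genes and the 5 windows of highest correlation. Replicate numbers follow accession order. Gene spans, with 2 kb on either side, come from RefSeq on GRCm38.p6. No genome was used, so the sequence of the window was not analysed here.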

Additional observations from a re-analysis of the deposited data

Results flagged for a closer look

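In 4 of 49 sets of values, each for 1 diet, a single library lay far from the rest, and chance alone gives about 1 such set in 20. The total at CpG A over that of its neighbours was 3.84 in Control 4, where the remaining Control libraries had 1.49 to 2.20. Control 4 also had the most counts, 11841657, against 7846118 to 9333437. At CpG B (21393635) PR 3 was at 91.7%, against 98.0% to 100% in the other PR libraries, with 12 reads in PR 3. At 21327938 PR 7 was at 91.3% where the other 7 PR libraries were at 100%, and there any lower value would have stood out.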

How the results depend on the processing

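The diet difference of the window kept its sign in each of the 15 fits that left out a single library (-2.98 to -1.08 points, exact permutation p 0.166 to 0.557), and was -8.57 points with summed counts and -6.96 with a coverage minimum of 20 reads, which leaves only CpG A. It turned positive only without PR 2 and 3 together (0.112 points, and 0.434 at CpG A). The rest of the gene ranged from -0.469 to 0.141 points over single libraries left out, positive without Control 5 (0.141) and PR 7 (0.0566). No call was made in Kcnd2 under any alternative run; over all CpGs 194 were called when the dispersion had no minimum, against 0. Summing positions 1 base apart was not run, as there are none. CpGs B to D had 12 reads in PR 3, the fewest of any library, which limits the precision of their percentages there. No paired analysis was possible because the replicate numbers follow accession order alone.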

Other observations

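Listed positions inside promoters were seldom in the motif that MspI cuts, and those outside promoters were not examined. Of the 685 listed positions inside RefSeq promoter sequences 12 (1.75%) lay in CCGG, against 18.8% of the 1986 CG dinucleotides in the same promoters. The longest stretch of Kcnd2 between 2 neighbouring listed CpGs was 97.0 kb.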
